A study of Mus musculus with 17 samples.

Results

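Translation factors are the proteins that bring ribosomes to an mRNA, set them on the start codon and move them along the coding sequence. Their genes were taken here by symbol, as every gene whose symbol begins with Eif and a digit (initiation factors, with their kinases and binding proteins) or with Eef1 or Eef2 (elongation factors, with the enzymes that modify them). This gave 65 of the 18836 genes listed in at least 1 of 17 RNA-seq libraries. Of the 65 genes, 61 had a mean FPKM of at least 1 over the cultured libraries and entered the tests. The cells were mouse neural retinal progenitor cells (mNRPCs) of strain C57BL/6, which the study expanded as a line from the neural retina of adult mice. One sample was the day 0 library, and the other 16 were 1 library of each of 4 media on each of days 1, 3, 5 and 7. The media were BM (basic medium of DMEM/F12 with N2, B27 and beta-mercaptoethanol), B (BM with bFGF, basic fibroblast growth factor), C (BM with CHIR99021, an inhibitor of the kinase GSK-3) and BC (BM with both), so all groups share the basic medium. Each medium and day was sequenced as 1 library, with no replicate. The p-values below therefore measure departures from the fitted model and not the spread between cultures.

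Initiation runs in steps. eIF2 carries the initiator tRNA to the small ribosomal subunit, eIF1 and eIF1A keep that subunit open while it scans, and the large eIF3 complex holds the parts together. The eIF4F complex (the cap-binding eIF4E, the scaffold eIF4G and the helicase eIF4A) loads the mRNA, and small eIF4E-binding proteins compete with eIF4G for eIF4E until the mTORC1 kinase phosphorylates them. Stress kinases phosphorylate the alpha subunit of eIF2, which blocks its exchange factor eIF2B and slows initiation. In elongation, eEF1A delivers aminoacyl-tRNAs, the eEF1B complex recharges it with GTP, and eEF2 moves the ribosome on, unless eEF2 kinase has phosphorylated it. Growth factors, FGFs among them, reach this machinery through the ERK and mTORC1 pathways. RNA-seq measures only the mRNAs of these proteins, not their phosphorylation.

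Total expected counts (the estimated reads per library) lay between 17571973 and 19428744. Of the retinal progenitor markers examined, 5 reached an FPKM of 1 in some library (Pax6, Six3, Nes, Sox2 and Lhx2), while Rax and Six6 stayed at or below 0.07. The photoreceptor (0 of 6) and microglial (0 of 3) markers did not reach 1. Of the fibroblast markers, 4 of 4 did, mainly through Col3a1. The summed FPKM of the fibroblast markers was 171 on day 0, from 141 to 400 without bFGF and from 62.2 to 154 with it. The progenitor marker Pax6 had an FPKM of 24.2 on day 0, from 42.2 to 207 without bFGF and from 10.7 to 82.3 with it, and Sox2 had 27.7, from 47.7 to 89.9 and from 29.1 to 59.5. Some other markers were higher with bFGF. The neuronal list summed to 19.99 FPKM on day 0, from 3.82 to 14.4 without bFGF and from 11.9 to 23.6 with it, mainly through Gap43. Of the 4 glial markers, Glul had 15.02 on day 0, from 12.4 to 18.8 without bFGF and from 15.5 to 32.6 with it. Aqp4 went the other way, from 0.05 to 1.53 and from 0.01 to 0.13, while Gfap and Slc1a3 stayed at or below 0.12. Several of these markers moved with bFGF, and their part in the results below was not tested. In bulk RNA, fewer cells of a type and less RNA per cell cannot be told apart.

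Translation factors made up a large share of the mRNA, and that share stayed higher with bFGF. They took 3.14% of all counts on day 0, between 1.60% and 2.80% in the 8 libraries without bFGF and between 2.40% and 2.99% in the 8 with it. The share was higher with bFGF in 8 of 8 pairs of libraries of the same day and CHIR99021 state (B with BM, BC with C). Without Eef1a1, the most abundant member, the remaining members still took a higher share in 8 of 8 pairs, from 1.21% to 1.96% without bFGF and from 1.44% to 2.15% with it.

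The question of the main comparison was which translation factors differed with bFGF over days 1 to 7. In a model with day, bFGF and CHIR99021, 45 of the 61 tested members passed the threshold (edgeR quasi-likelihood test, Benjamini-Hochberg adjusted p under 0.05), 34 higher and 11 lower with bFGF. The background was wide: 68.4% of all 11272 genes tested passed, 34.6% higher and 33.9% lower, so the number of members called was close to it and the direction was not. The median log2 fold change was 0.46 over the members and -0.00 over all genes. These fold changes are on the TMM scale (trimmed mean of M values), which puts the bulk of genes at 0. On library totals alone the median of all genes moved to -0.29 and that of the members to 0.17, with 29 members higher and 20 lower, where 19.9% of all genes were higher and 50.6% lower. On day 7 that scaling moved the median gene by most, to -0.54, the member median went from 0.51 to -0.03, and the calls from 37 higher and 11 lower to 25 and 23, where 21.9% of all genes were higher and 59.0% lower. On quantile-normalized values 28 members were higher and 14 lower over days 1 to 7 (33.2% and 34.2% of all genes), with a member median of 0.20. On day 7 that setting gave 27 and 19 (36.5% and 37.1%), with a median of 0.06 for the members and -0.01 for all genes. Differences are therefore given relative to the median gene on the TMM scale unless stated, with the FPKM beside many of them but not all.

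**Figure D1:**
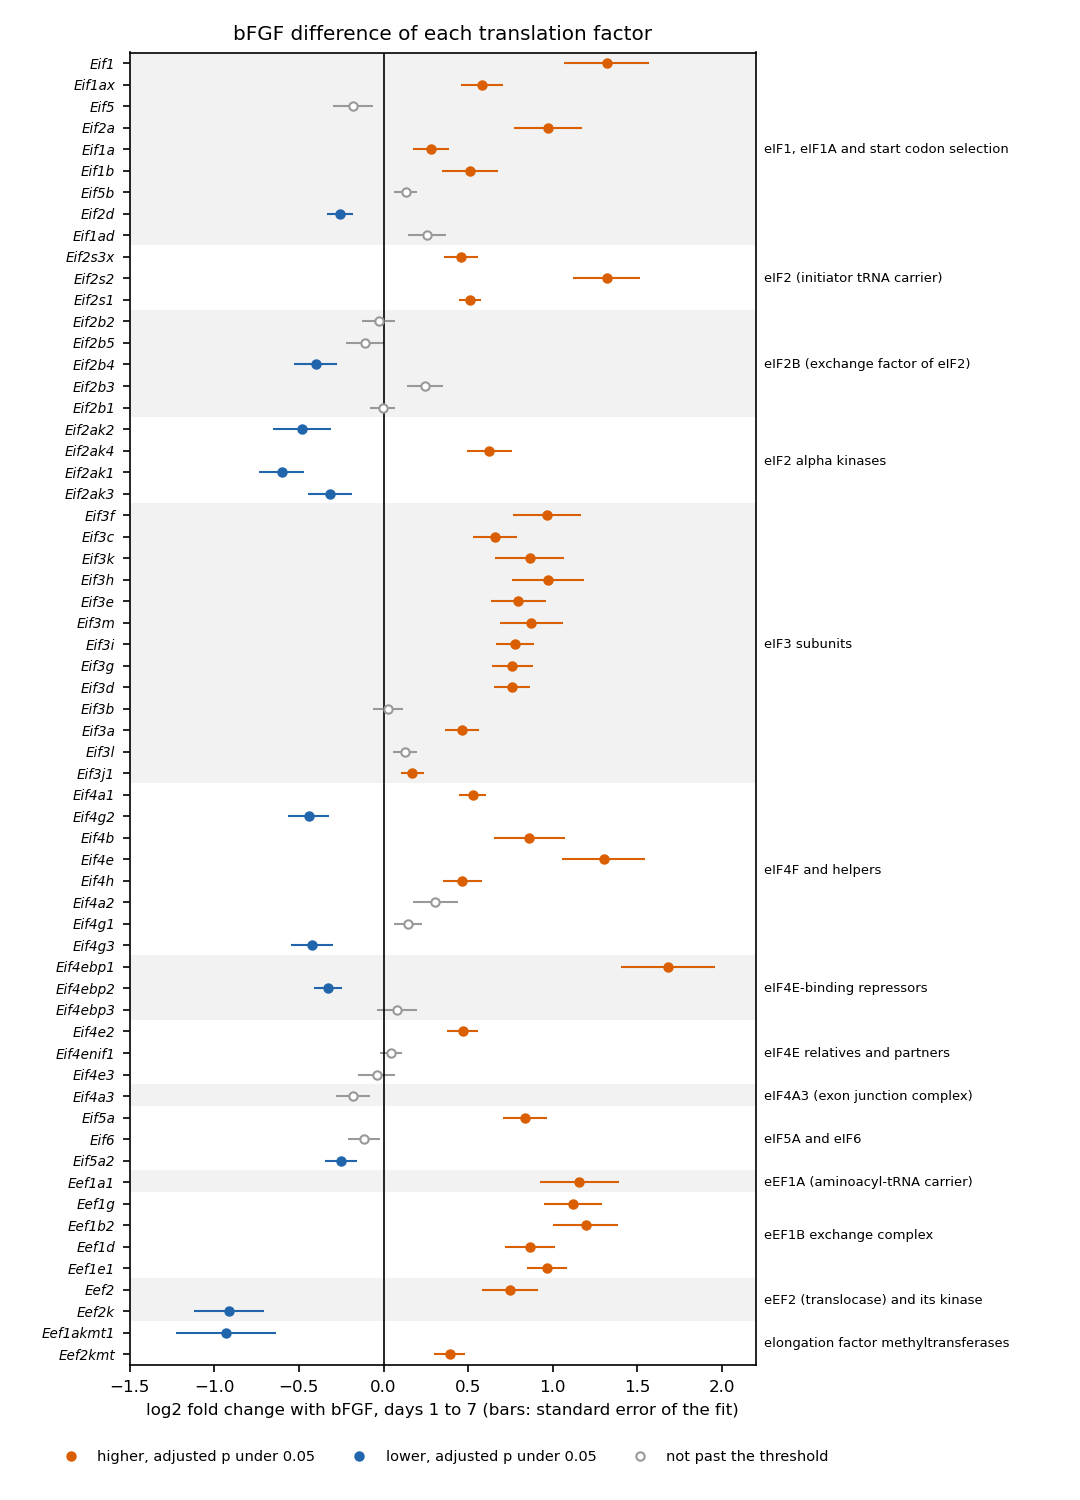
Log2 fold change with bFGF over days 1 to 7 (x axis, TMM scale) for the 61 tested translation factors, in rows grouped by role and ordered by mean FPKM, with the standard error of the fit as bars. The 34 members past the threshold that were higher lie right of 0 and the 11 lower ones left, and Eif4ebp1 stands farthest right at 1.68. On quantile-normalized values Eef2 turned to the left, to -0.20.

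The promoters of the members were searched for 2 short sequences. CACGTG is the core E box bound by MYC, MAX and USF proteins, and it reads the same on both strands. A run of pyrimidines beginning with C at the transcription start is the hallmark of terminal oligopyrimidine mRNAs, elongation factors among them, whose translation follows mTORC1. RefSeq promoter sequences (GRCm38.p6, 250 bases before to 50 after the start) were matched for 50 of the 65 members. CACGTG was present in 12 of the 50 (24.0%), against 8.09% of all 27025 genes with a promoter sequence and 11.9% of those tested. A sense-strand run of at least 8 C or T letters, beginning with C within 20 bases of the start, was also present in 12 (24.0%), against 15.7% and 16.9%. Among the tested members with CACGTG 9 of 12 were higher and 2 lower with bFGF, and among those without it 18 of 36 and 7. With the pyrimidine run 6 of 10 were higher and 0 lower, and without it 21 of 38 and 9. These counts were not tested, and a match is only a match of letters. A run could lie before or after the annotated start. That of Eif3m began at -20 from the start and lay wholly before it, so outside the annotated mRNA, and that of Eif3k began at 13. The windows below are a selection, shown for factors whose levels follow. They are those of Eif4e, Eif4g1, Eif4a1, Eef2 and Eef2k with CACGTG, and of Eef1a1, Eif2s3x and the eIF3 subunits with the run (1 of the overlapping windows of Eif3l), while the other matches are not printed. Each is 30 bases, 5′ to 3′ on the gene's strand, with the matched letters in capitals.
Eif4e, chr3:138527028-138527057, plus strand: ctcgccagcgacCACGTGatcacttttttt
Eif4e, chr3:138527192-138527221, plus strand: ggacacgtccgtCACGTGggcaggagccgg
Eif4g1, chr16:20672661-20672690, plus strand: ggcagtgggtgtCACGTGatggggcggagc
Eif4g1, chr16:20672730-20672759, plus strand: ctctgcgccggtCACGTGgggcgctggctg
Eif4a1, chr11:69672595-69672624, minus strand: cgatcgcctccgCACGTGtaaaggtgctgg
Eef2, chr10:81176576-81176605, plus strand: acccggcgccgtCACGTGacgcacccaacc
Eef2k, chr7:120842788-120842817, plus strand: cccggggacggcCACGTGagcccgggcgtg
Eef1a1, chr9:78481710-78481739, minus strand: gctggctccgCCCTCTTCCCgagggtgggg
Eif2s3x, chrX:94212632-94212661, minus strand: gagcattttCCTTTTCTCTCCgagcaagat
Eif3f, chr7:108934403-108934432, plus strand: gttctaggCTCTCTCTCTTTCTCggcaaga
Eif3k, chr7:28981856-28981885, minus strand: gctgaaagcgCCTTTCCCTTTgccttcctt
Eif3l, chr15:79075216-79075245, plus strand: ttcttcttccgCTCTCTCCCacgggcttct
Eif3m, chr2:105017028-105017057, minus strand: tacggcaccgCTCTCTTTTCCggtcggcgt

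Eef1a1 (gene 13627, chromosome 9, 78478453 to 78481724, GRCm38.p6) encodes eEF1A, which brings aminoacyl-tRNAs to the ribosome, and it had the highest count of any gene in 12 of the 17 libraries. By FPKM it ranked 1 on day 0, from 2 to 5 without bFGF and from 1 to 5 with it. Its FPKM was 4368 on day 0, then 4165, 2895, 2356 and 2146 (BM) on days 1, 3, 5 and 7, 4712, 3469, 2506 and 2405 (C), 4366, 5050, 5818 and 5443 (B), and 4731, 5725, 6522 and 5730 (BC). From day 3 on, the 6 libraries with bFGF lay above the 6 without it, and the share of all genes that did so was not counted. In the 8 pairs Eef1a1 was higher with bFGF in 8, by a mean of 0.86 ± 0.56 on the log2(FPKM + 1) scale (SD, exact two-sided sign-flip permutation p = 0.00781, the smallest that 8 pairs allow, and pairs of the same day may move together). In the fit its log2 fold change was 1.16 ± 0.23 (SE, adjusted p = 0.00115) over days 1 to 7 and 1.84 ± 0.09 on day 7, on the TMM scale. Quantile normalization, which sets each value by its rank within the library, gave 0.21 (adjusted p = 0.055, limma) over days 1 to 7 and turned the day 7 value to -0.05. The other carrier gene, Eef1a2, which muscle and neurons use, was listed in 10 of 17 libraries and reached at most an FPKM of 0.10 (4 counts).

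The eEF1B complex, which exchanges GDP for GTP on eEF1A, moved with it. All 4 genes grouped here under eEF1B, its subunits Eef1g, Eef1b2 and Eef1d and the relative Eef1e1, were higher with bFGF over days 1 to 7. They were so on library totals and on quantile-normalized values too. Eef1g, the gamma subunit, had an FPKM of 696 on day 0, between 222 and 572 without bFGF and between 429 and 662 with it, a log2 fold change of 1.12 ± 0.17 (adjusted p = 0.000279). Eef1b2, the beta subunit, had 227 on day 0, then 177, 95.6, 79.9 and 78.5 (BM), 214, 119, 82.5 and 86.2 (C), 201, 188, 180 and 194 (B), and 230, 219.5, 204 and 206 (BC). It thus stayed near the day 0 level with bFGF and in BM was below 100 from day 3. With bFGF it differed by 1.19 ± 0.19 (adjusted p = 0.000342). Eef1d, the delta subunit, differed by 0.86 ± 0.15 (adjusted p = 0.000457). Eef1e1, a small relative that sits in the aminoacyl-tRNA synthetase complex, differed by 0.96 ± 0.12 (adjusted p = 8.29e-05), but its FPKM was 82.5 on day 0 and at most 54.1 in any cultured library.

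Eef2, the translocase, and Eef2k, the kinase that inactivates it, went opposite ways. Eef2 had an FPKM of 1010 on day 0, 1100, 976, 768 and 648 (BM), 1215, 1088, 814 and 734 (C), 1183, 1242, 1286 and 1157 (B), and 1264, 1251, 1353 and 1125 (BC) on days 1, 3, 5 and 7. Eef2k had 8.54 on day 0, 11.6, 14.9, 11.6 and 9.96 (BM), 12.9, 14.2, 12.6 and 11.8 (C), 11.1, 8.63, 3.21 and 2.47 (B), and 12.4, 10.4, 2.93 and 2.44 (BC). With bFGF the kinase mRNA thus fell away after day 3 while that of its target held its level. The log2 fold change was 0.75 ± 0.17 for Eef2 (adjusted p = 0.00201) and -0.91 ± 0.21 for Eef2k (adjusted p = 0.00219). Quantile normalization turned Eef2 to -0.20, so the ratio of the pair within a library, which needs no scaling, is also given. The FPKM of Eef2 per FPKM of Eef2k was 118 on day 0, between 62.1 and 94.9 without bFGF and between 102 and 468 with it. These ranges did not overlap, though those of each gene alone did. How often the ratio of other gene pairs separates in this way was not counted.

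**Figure D2:**
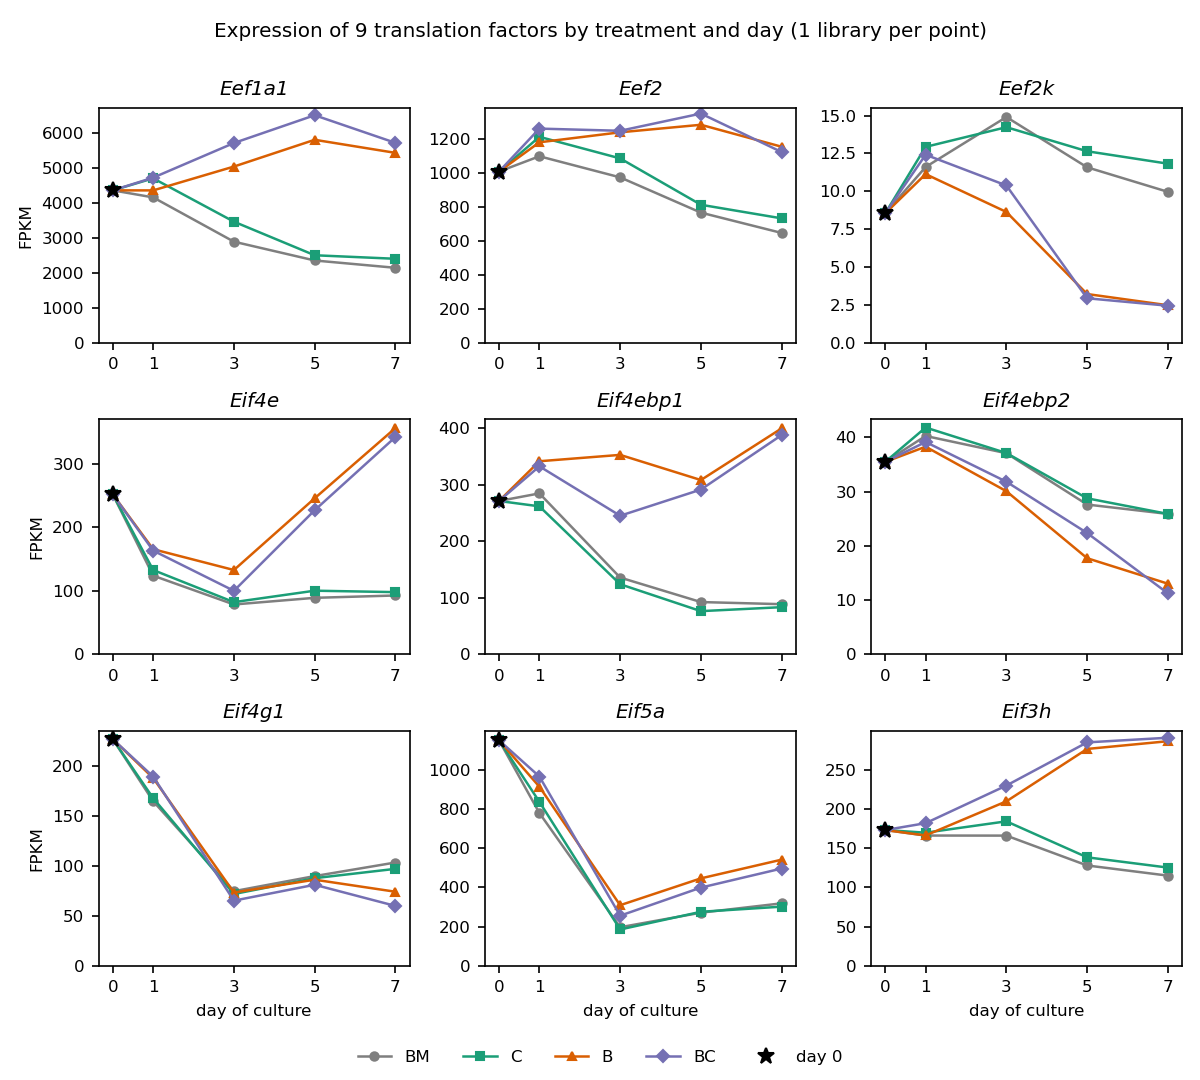
FPKM (y axis, from 0) by day of culture (x axis) for 9 translation factors, 1 point per library, with BM in grey circles, C in green squares, B in orange triangles, BC in purple diamonds and day 0 as a black star. The lines with bFGF part from those without it after day 1 for Eef1a1, Eef2, Eef2k, Eif4ebp1 and Eif3h, while Eif4g1 and Eif5a fall from day 0 to day 3 in all 4 media.

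Among the 8 genes of eIF4F and its helpers, 4 were higher with bFGF (Eif4e, Eif4b, Eif4a1 and Eif4h), 2 were lower (Eif4g2 and Eif4g3) and 2 did not pass the test (Eif4g1 and Eif4a2). Eif4e, the cap-binding subunit, had an FPKM of 252 on day 0, 124, 78.3, 88.8 and 92.5 (BM), 133, 82.0, 100.05 and 97.8 (C), 165, 133, 245 and 356 (B), and 163, 99.8, 227 and 342 (BC). Every medium showed a lower level on day 3 than on day 0, and on days 5 and 7 the libraries with bFGF were at more than 2 times those without. The fitted log2 fold change was 1.301 ± 0.25 (adjusted p = 0.00079) over days 1 to 7 and 2.40 ± 0.13 on day 7. The scaffold Eif4g1, its partner, differed by only 0.14 ± 0.08 (adjusted p = 0.133). Its FPKM was 227 on day 0 and on day 7 103 (BM), 97.1 (C), 74.2 (B) and 60.0 (BC). The ratio of Eif4e to Eif4g1 was 1.11 on day 0, between 0.75 and 1.14 without bFGF, and between 0.86 and 5.70 with it. It was 0.88 (B) and 0.86 (BC) on day 1, within the range without bFGF, and 4.80 (B) and 5.70 (BC) on day 7.

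The helicase Eif4a1 had an FPKM of 768 on day 0 and at most 492 in any cultured library. From day 3 on it lay between 146 and 204 without bFGF and between 198 and 229 with it, all well below day 0. Its log2 fold change was 0.53 ± 0.08 (adjusted p = 0.000288). Eif4b, which stimulates the helicase, had an FPKM of 175 on day 0, from 110 to 191 without bFGF and from 154 to 285 with it, and differed by 0.86 ± 0.21 (adjusted p = 0.00339). Eif4g2, a scaffold relative that does not bind eIF4E, was lower instead (-0.44 ± 0.12, adjusted p = 0.00659), with levels from 197 to 276 FPKM without bFGF and from 97.1 to 275 with it. Eif4g3, a second full-length scaffold, differed by -0.42 ± 0.12 (adjusted p = 0.00943). On quantile-normalized values the 8 genes split into 2 higher and 2 lower. The paralogs Eif4a1 and Eif4a2 share sequence, and reads that match both could have been divided between them.

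The eIF4E-binding proteins diverged from each other. Eif4ebp1 had an FPKM of 271 on day 0, 284, 136, 92.3 and 88.5 (BM), 261, 124, 76.2 and 83.2 (C), 341, 352, 308 and 399 (B), and 332, 245, 291 and 387.5 (BC) on days 1, 3, 5 and 7. From day 3 on, every library with bFGF was above every library of those days without it, which was not counted over all genes. Its log2 fold change of 1.68 ± 0.28 (adjusted p = 0.000396) was the largest of the 61 members, and on day 7 it was 2.74 ± 0.13. Eif4ebp2 had 35.5 on day 0, 40.3, 37.1, 27.6 and 25.9 (BM), 41.8, 37.1, 28.8 and 25.9 (C), 38.3, 30.1, 17.7 and 13.02 (B), and 39.2, 31.8, 22.4 and 11.2 (BC). It was lower with bFGF, by -0.33 ± 0.08 (adjusted p = 0.00439) over days 1 to 7 and by -0.71 ± 0.08 on day 7. Eif4ebp3, the third repressor, stayed between 5.04 and 9.61 and did not pass the test (0.08 ± 0.12, adjusted p = 0.559). The FPKM of Eif4ebp1 per FPKM of Eif4ebp2 was 7.63 on day 0, between 2.65 and 7.06 without bFGF and between 7.69 and 34.5 with it. Of the relatives and partners of eIF4E, Eif4e2, a cap-binding protein that represses translation, was higher (0.47 ± 0.09, adjusted p = 0.000919), and Eif4enif1 (0.04, adjusted p = 0.571) and Eif4e3 (-0.04, adjusted p = 0.753) did not pass.

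Of the factors that select the start codon, 5 of 9 were higher with bFGF and 1 was lower (3 and 3 on library totals). Eif1, which guards against wrong start codons, had an FPKM of 453 on day 0, 359, 260, 202 and 232 (BM), 308, 228, 187 and 214 (C), 401, 433, 661 and 771 (B), and 370, 318, 507 and 674 (BC). On day 7 it was thus above day 0 in both media with bFGF and below it in both without. With bFGF it differed by 1.32 ± 0.25 (adjusted p = 0.000841). Its near-copy Eif1b differed by 0.51 ± 0.16 (adjusted p = 0.0151), and reads may have been divided between them, as for Eif1ax (0.58 ± 0.12, adjusted p = 0.00156) and Eif1a (0.28 ± 0.11, adjusted p = 0.0309). The Eif1a call was lost without any of 9 libraries (adjusted p from 0.054 to 0.0769), and on library totals its value turned to -0.012 while Eif1b lost its call (0.22, adjusted p = 0.124). Eif2a, a tRNA-binding factor distinct from the alpha subunit of eIF2, differed by 0.97 ± 0.20 (adjusted p = 0.00131). Eif2d, which recycles and initiates without eIF2, was the lower member (-0.26 ± 0.08, adjusted p = 0.0112). Eif5, the GTPase activator of eIF2, did not pass (-0.18 ± 0.12, adjusted p = 0.19), but was called lower on library totals (-0.47, adjusted p = 0.012).

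All 3 tested eIF2 subunits were higher with bFGF. Eif2s2, the beta subunit, had an FPKM of 150 on day 0, 114, 40.3, 41.8 and 51.3 (BM), 115, 37.5, 36.4 and 42.8 (C), 139, 86.4, 112 and 122 (B), and 148, 62.6, 98.01 and 127 (BC). All 4 media showed a drop between days 1 and 3, and with bFGF the level was higher again on days 5 and 7. The fitted log2 fold change was 1.32 ± 0.20 (adjusted p = 0.000255), against 0.51 ± 0.06 for the alpha subunit Eif2s1 (adjusted p = 9.85e-05) and 0.46 ± 0.10 for the gamma subunit Eif2s3x (adjusted p = 0.00177). On day 7 the FPKM of Eif2s1 was 23.9 (BM), 20.8 (C), 26.3 (B) and 20.2 (BC). Eif2s3y, the Y-linked gamma subunit, stayed between 0.23 and 1.21 FPKM and was not tested. The other members below the filter were Eif3j2 (0 to 1.63 FPKM), Eif4e1b (0.03 to 0.20) and Eef1a2.

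The kinases and the exchange factor of eIF2 did not follow the subunits. Among the 4 eIF2 alpha kinases 1 was higher and 3 were lower. Eif2ak4 (GCN2, which senses uncharged tRNA) differed by 0.63 ± 0.13 (adjusted p = 0.00151). Its FPKM on day 7 was 11.49 (BM), 9.34 (C), 9.47 (B) and 12.45 (BC). Eif2ak1 (HRI, which senses heme shortage) differed by -0.60 ± 0.13 (adjusted p = 0.00195), from 13.4 to 17.8 FPKM without bFGF and from 4.47 to 12.9 with it. Eif2ak2 (PKR, which senses double-stranded RNA) differed by -0.48 ± 0.17 (adjusted p = 0.0231), but the call was lost without B day 5, BC day 5 or BC day 7 (adjusted p from 0.0547 to 0.0598). Eif2ak3 (PERK, the kinase of the endoplasmic reticulum) differed by -0.32 ± 0.13 (adjusted p = 0.0425) and lost its call without any of 8 libraries (adjusted p from 0.0555 to 0.0837). Of the 5 eIF2B subunits only Eif2b4 passed, lower with bFGF (-0.40 ± 0.13, adjusted p = 0.0133). On library totals 4 of 5 were lower, a scaling on which 50.6% of all genes were lower.

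The eIF3 complex binds the small ribosomal subunit and recruits the mRNA, and 11 of its 13 tested subunits were higher with bFGF and 0 were lower (9 and 0 on library totals, 9 and 1 on quantile-normalized values). Eif3h had an FPKM of 173 on day 0, 166, 166, 128 and 115 (BM), 170, 184, 138 and 125 (C), 166, 210, 276 and 286 (B), and 182, 230, 285 and 291 (BC). Its level with bFGF was thus higher on each later day up to day 5, while without it the lowest values were those of day 7. Its log2 fold change was 0.97 ± 0.21 (adjusted p = 0.00167), near that of Eif3f (0.96 ± 0.20, adjusted p = 0.00134), Eif3m (0.87 ± 0.18, adjusted p = 0.0015) and Eif3k (0.86 ± 0.20, adjusted p = 0.00282). Eif3c, in the core of the complex, differed by 0.66 ± 0.13 (adjusted p = 0.000993). Eif3e was the only member of the 61 with every bFGF library (122 to 137 FPKM) above every library without it (71.5 to 121), as 1.39% of all genes tested were, and Eif2ak1 the only one with every bFGF library below, as 4.44% were.

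Other eIF3 subunits moved differently. Eif3b, a core scaffold subunit, had an FPKM of 199 on day 0, 119, 56.9, 63.5 and 73.8 (BM), 120, 53.4, 66.2 and 72.2 (C), 142, 53.0, 54.6 and 49.9 (B), and 146, 43.1, 46.1 and 37.3 (BC). It was below day 0 in every cultured library, and bFGF made no difference that passed the test (0.03 ± 0.09, adjusted p = 0.804). Eif3l did not pass either (0.13 ± 0.07, adjusted p = 0.126). Eif3j1, a loosely bound subunit, passed at 0.17 ± 0.07 (adjusted p = 0.0357) but turned to -0.12 on library totals and lost its call without any of 12 libraries (adjusted p from 0.0548 to 0.0955), and its near-copy Eif3j2 lay below the filter. The SD of log2 FPKM over the 13 subunits was 0.52 on day 0, between 0.66 and 0.94 without bFGF and between 0.77 and 1.27 with it (higher in 6 of 8 pairs). The FPKM of Eif3h per FPKM of Eif3b was 0.87 on day 0, with day 7 values of 1.56 (BM), 1.73 (C), 5.74 (B) and 7.79 (BC).

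**Figure D3:**
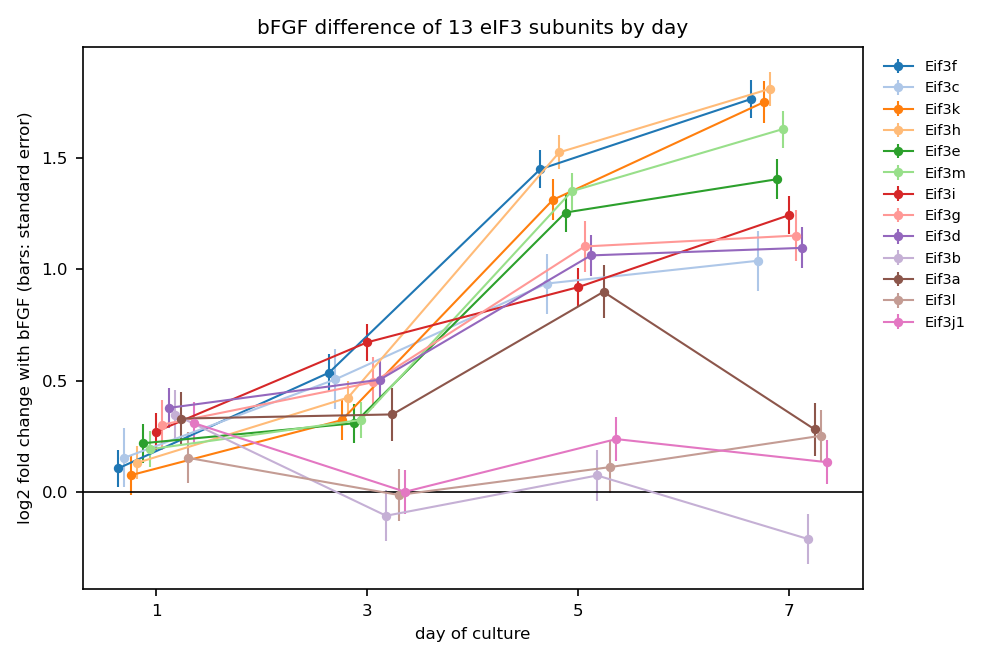
Log2 fold change with bFGF (y axis, TMM scale, bars are the standard error of the fit) by day (x axis, points offset sideways) for the 13 tested eIF3 subunits. The subunits lie close together on day 1 and spread by day 7, with Eif3h at 1.81 and Eif3b at -0.21.

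Eif5a, whose product relieves ribosomes stalled on prolines and carries the unusual amino acid hypusine, had an FPKM of 1150 on day 0, 779, 197, 271 and 319 (BM), 837, 186, 276 and 302 (C), 914, 309, 446 and 542 (B), and 966, 255.97, 399 and 496 (BC). No cultured library reached the day 0 level, and the bFGF library was the higher of each pair. With bFGF it differed by 0.83 ± 0.13 (adjusted p = 0.000295), while its paralog Eif5a2 differed by -0.25 ± 0.09 (adjusted p = 0.0288, and from 0.0538 to 0.058 without B day 3, BC day 3, B day 7 or BC day 7). Eif6, which keeps free large subunits apart, did not pass (-0.12 ± 0.09, adjusted p = 0.28), but was called lower on library totals. Eef1akmt1, a methyltransferase of eEF1A, stood at 30.2 FPKM on day 0 and, by day 7, at 13.8 (BM), 14.5 (C), 2.36 (B) and 3.75 (BC). It had the largest fall of the members with bFGF (-0.93 ± 0.29, adjusted p = 0.0134). Eef2kmt, the methyltransferase of eEF2, was higher (0.39 ± 0.09, adjusted p = 0.00258), a call lost on library totals (0.10, adjusted p = 0.344) and with either limma pseudocount, and its FPKM lay between 7.27 and 11.2 without bFGF and between 6.09 and 12.03 with it.

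Few members differed with bFGF on day 1 and most did from day 3 on, and all genes tested took the same course. The share of members called was close to that of all genes on days 1 and 7, and above it on days 3 and 5. The member median of the log2 fold change was 0.20 on day 1, 0.14 on day 3, 0.62 on day 5 and 0.51 on day 7, so the typical difference did not grow from each day to the next. In a model with bFGF within each day, 7 members passed on day 1, 7 higher and 0 lower, against 10.7% of all genes, 6.21% higher and 4.46% lower (Eef1e1, Eif1a, Eif1ad, Eif2b3, Eif2s1, Eif3d and Eif4e). That count rests on few libraries. It was 0 without any one of the 4 day 1 libraries, 3 without BM day 7, C day 5 or C day 7, 4 without BM day 3, BM day 5 or C day 3, 11 without B day 3, 10 without B day 7 or BC day 7, and 20 without BC day 3. On day 3, 28 were higher and 11 lower (background 50.4%, 25.4% higher and 25% lower), on library totals 24 and 15 (21.3% and 31.8% of all genes). On day 5 the counts were 38 and 12 (75.8%, 37.2% and 38.6%), on library totals 28 and 23 (21.3% and 56.7%), and on day 7 37 and 11 (78.4%, 38.8% and 39.6%). The bFGF difference changed between days for 49 of the 61 members (80.3%), close to the 76.3% of all genes. From day 1 to day 7 it went up for 25 and down for 14 (background 65.4%, 31.3% up and 34.1% down). On library totals the counts were 21 up and 26 down (17.7% and 51.3% of all genes). On quantile-normalized values they were 21 and 19 (28.9% and 30.2%). Among the members that did grow, Eef1a1 went from 0.12 on day 1 to 0.86, 1.79 and 1.84 on days 3, 5 and 7, and Eif4ebp1 from 0.39 to 1.29, 2.28 and 2.74.

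Without bFGF, most translation factor mRNAs fell over the culture. From day 1 to day 7, 46 of 61 members were lower and 5 higher without bFGF, against a background of 63.8% called in either direction (32.3% higher, 31.5% lower), with a member median of -0.50 beside 0.02 for all genes. The 5 were Eif1b, Eif2ak3, Eif4a2, Eif4e3 and Eif5a2, and all 13 eIF3 subunits were among the lower. With bFGF 19 were higher and 27 lower (background 75.3%, 35.8% higher and 39.5% lower), and on library totals 11 and 39 (22.1% and 56.1% of all genes). On quantile-normalized values 12 were higher and 40 lower with bFGF (32.8% and 37.6% of all genes). In that setting the member median was -0.48 with bFGF and -0.44 without it, beside -0.04 and -0.03 for all genes. The contrast between media with and without bFGF thus depended on the scaling. Eef1a1 changed by -0.99 without bFGF and by 0.74 with it, though quantile normalization turned the second to -0.65.

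**Figure D4:**
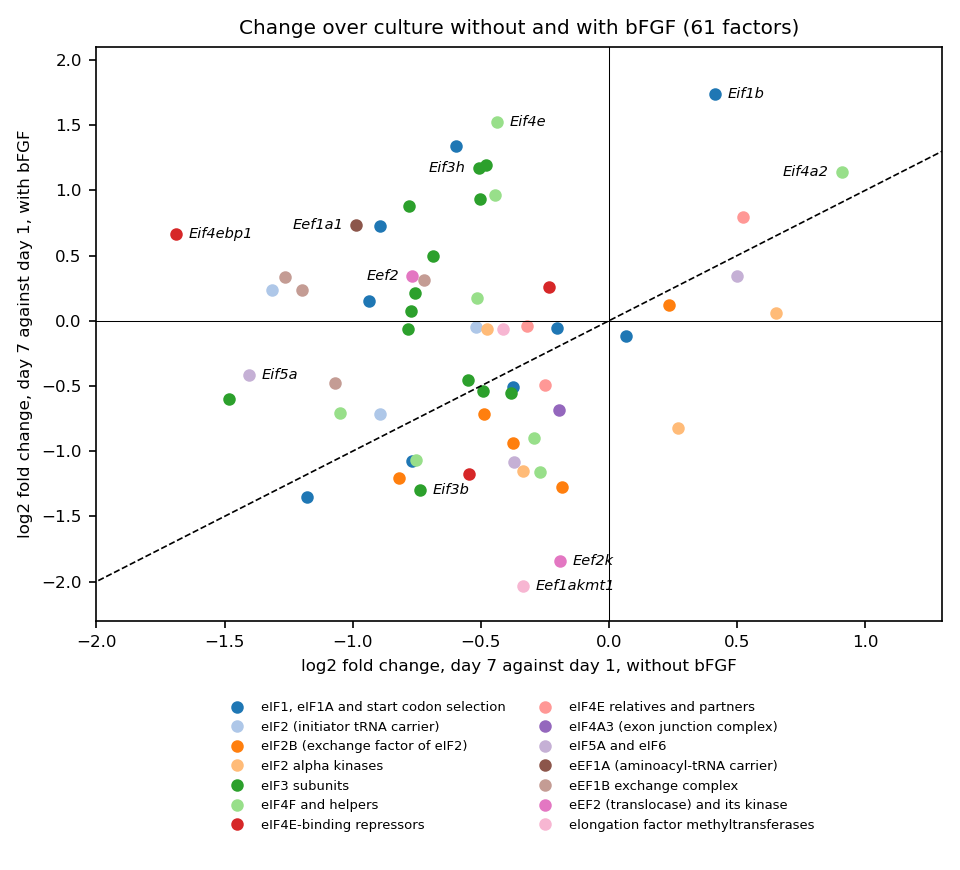
Log2 fold change from day 1 to day 7 without bFGF (x axis) and with bFGF (y axis, both on the TMM scale) for 61 translation factors, coloured by role, with a dashed line where both are equal. Most points lie left of 0, where 46 members fell without bFGF, and Eef1a1 lies at -0.99 and 0.74, where quantile normalization turned the second value to -0.65.

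Against the day 0 library, which the study describes both as a control in basic medium and as the state before treatment, 1 library stands on each side and no test was made. On day 7, 31 members in BM, 28 (C), 22 (B) and 25 (BC) were lower by at least 2 times on the log2(FPKM + 1) scale, where the background was 13%, 13.9%, 23.2% and 25.6% of all genes. At least 2 times higher were 3, 3, 0 and 0 members, with backgrounds of 21.1%, 21.5%, 11.9% and 12.1%. The member medians were -1.02, -0.95, -0.65 and -0.72, beside 0.19, 0.18, -0.27 and -0.33 for all genes. Day 1 held 3, 2, 1 and 0 lower members in the same order of media (background 1.78%, 2.39%, 0.622% and 0.799%) and 1 higher member in each (7.15%, 7.07%, 3.71% and 3.49%). By day 3 there were 28, 28, 21 and 24 lower (15.3%, 15.4%, 12.4% and 14.2%) and 3, 3, 0 and 1 higher (22.3%, 21.9%, 15.7% and 18.7%). On day 5 there were 33, 32, 23 and 23 lower (14.1%, 14.8%, 23.2% and 23.2%) and 2, 3, 1 and 2 higher (21.3%, 21.5%, 11.7% and 12.5%). Lower members were a larger share than the background in every library of days 3, 5 and 7, from 34.4% to 54.1% of the 61.

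**Figure D5:**
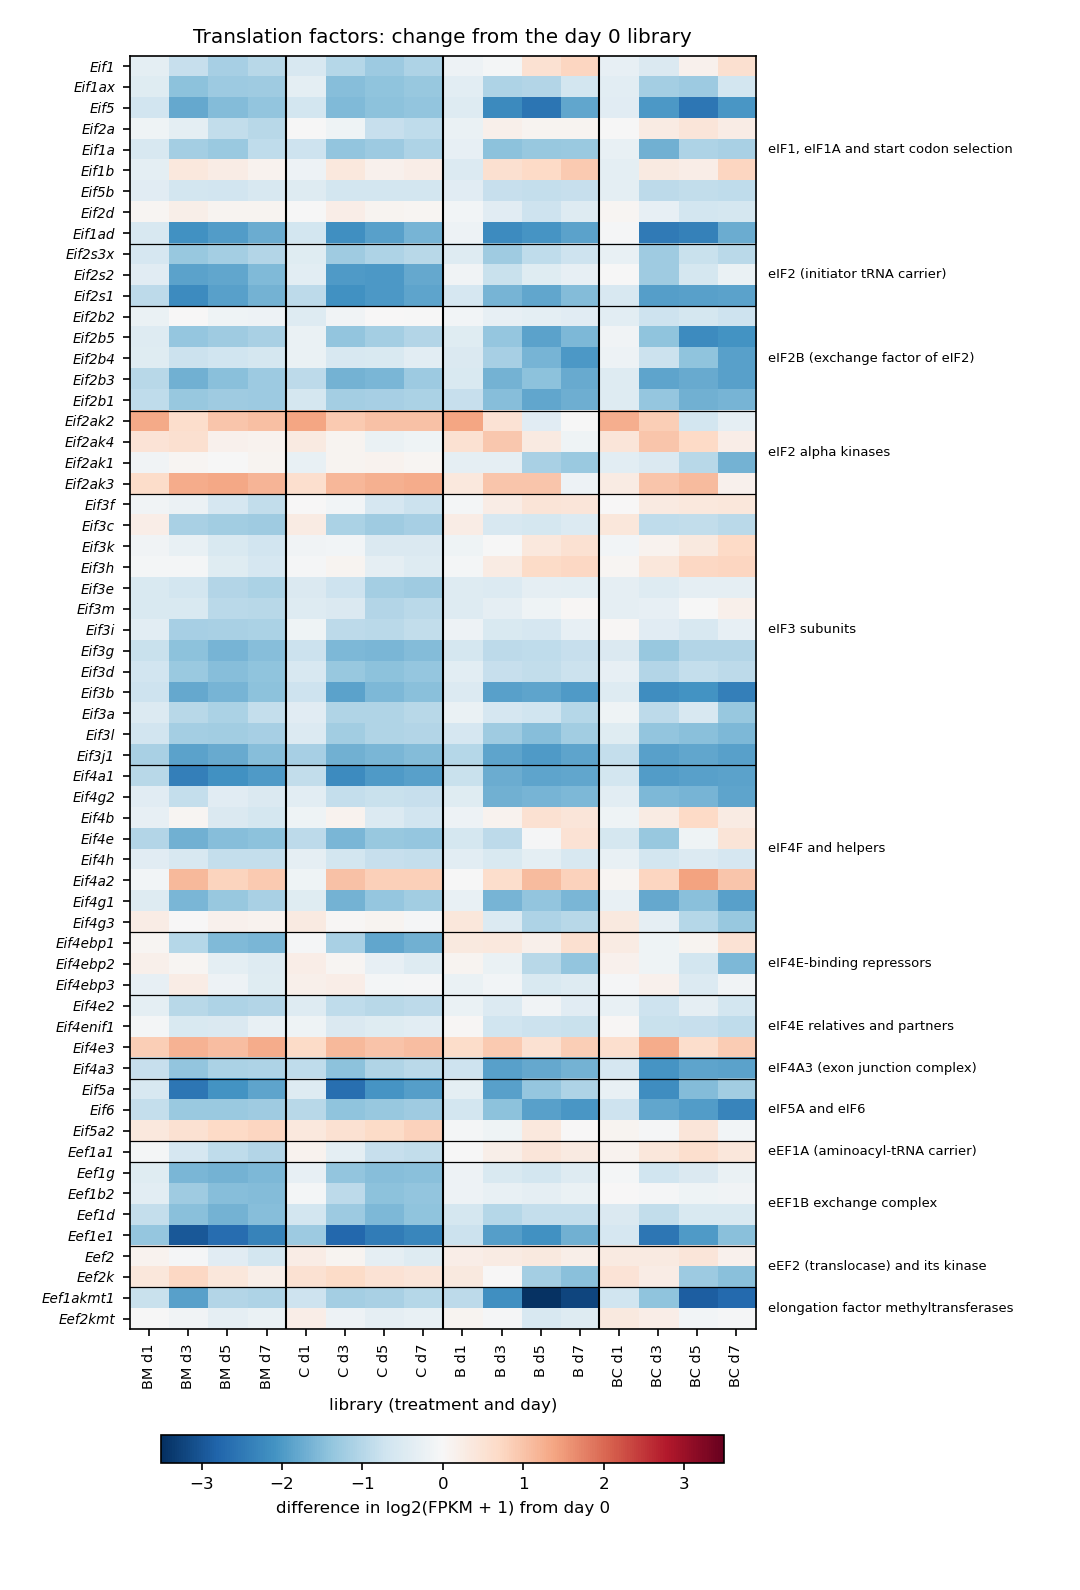
Difference of log2(FPKM + 1) from the day 0 library (colour scale from -3.5 to 3.5) for 61 translation factors in rows grouped by role, and the 16 cultured libraries in columns. Rows are mostly near 0 on day 1 and below 0 from day 3, with member medians on day 7 from -1.02 in BM to -0.65 in B.

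The next question was which members differed with CHIR99021. Of the 61 members 0 passed the CHIR99021 term of the edgeR model (38 of all genes, 0.337%, of which 0.0532% higher and 0.284% lower), 2 had an unadjusted p under 0.05, and DESeq2 called 0 members. In the model with bFGF within each day, which has a smaller residual spread, 9 passed (background 19.5%), 8 higher (9.72%) and Eif1 lower (9.79%) at -0.22. The largest of the 8 were Eif2b4 at 0.26 and Eif4ebp3 at 0.25. For the interaction of bFGF with CHIR99021, 0 members passed (background 0.00887%, 0.00887% higher and 0% lower), 1 had an unadjusted p under 0.05, and DESeq2 called 0.

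Genes that act beside the translation factors were read from lists of 40 genes, of which 19 were higher and 11 lower with bFGF, where 34.6% of all genes were higher and 33.9% lower. The lists are given as counts and values, and no list was tested against other genes. Among genes of the eIF2 alpha phosphatase and of the stress arm, 5 of 5 were higher, under each scaling tried over days 1 to 7. On day 7, 5 were higher on the TMM scale but 4 on library totals and with either limma pseudocount. Ddit3, a stress transcription factor, stood at 43.2 FPKM on day 0 and at 66.6 (BM), 73.4 (C), 705 (B) and 641 (BC) on day 7, and differed by 2.59 ± 0.48 (adjusted p = 0.000713) over days 1 to 7. Trib3 (1.93 ± 0.30, adjusted p = 0.000301), Ppp1r15a, which brings the phosphatase to eIF2 alpha (1.75 ± 0.40, adjusted p = 0.00211), Atf4 (1.44 ± 0.23, adjusted p = 0.000312) and Ppp1r15b (0.51 ± 0.12, adjusted p = 0.00278) were the others. Among poly(A)-binding proteins and partners 4 of 5 were higher, and Pabpc1, which bridges the tail to eIF4G, had 665 FPKM on day 0 and on day 7 232 (BM), 250 (C), 948 (B) and 825 (BC).

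In the mTORC1 list 3 of 14 were higher and 6 lower (2 and 9 on library totals). For this list and those below, 34.6% of all genes were higher and 33.9% lower, and 19.9% and 50.6% on library totals. Rheb, the activator of mTORC1, differed by 1.07 ± 0.18 (adjusted p = 0.000415), and Deptor, its inhibitor, by 1.99 ± 0.20 (adjusted p = 3.04e-05). Mtor itself (-0.41 ± 0.13, adjusted p = 0.0158), Mlst8 (-0.58 ± 0.17, adjusted p = 0.00822) and the S6 kinase Rps6kb2 (-0.82 ± 0.15, adjusted p = 0.000756) were lower. In termination and recycling 4 of 6 were higher and 1 lower (1 and 1 on library totals), with the ribosome recycling factor Abce1 at 0.84 ± 0.13 (adjusted p = 0.000288). Of the hypusination enzymes 1 of 2 was higher (0 on library totals). Of the mitochondrial translation factors 2 of 8 were higher and 4 lower (1 and 5 on library totals). Tufm was at 0.34 ± 0.06 (adjusted p = 0.000776) and the mitochondrial initiation factor Mtif2 at -0.58 ± 0.17 (adjusted p = 0.00852). On day 7 the FPKM of Tufm was 53.5 (BM), 58.95 (C), 53.8 (B) and 50.05 (BC), and library totals turned its sign.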

How the data were processed

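Poly(A)-selected RNA of 17 libraries was sequenced on a BGISEQ-500, and the authors deposited 1 table per library. The deposited expected counts (estimated reads per gene, which need not be whole) and FPKM values were made by the authors, by Bowtie 2 and eXpress per the paper. The submitters' processing notes name Bowtie2, RSEM and mm10, and the columns carry RSEM's names. Versions are not given in the sources used here. Absence of a gene from a library's list was read as 0. Expected counts were rounded and tested with edgeR 4.0.16 (quasi-likelihood, TMM, Benjamini-Hochberg adjusted p under 0.05) in R 4.3.3 on the 11272 genes whose FPKM averaged 1 or more over the 16 cultured libraries. Models held day, bFGF and CHIR99021, bFGF within each day, or the interaction, and ± after a fold change is the standard error. No medium and day was replicated, so the residual spread is departure from the model. Depth was 17571973 to 19428744 counts, and reads are not independent molecules. Alternatives used library totals, DESeq2 1.42.0, limma 3.58.1 with log2(FPKM + 1) or log2(FPKM + 0.1), quantile normalization, other filters and leaving out each library. The code was tested on simulated data.

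The members and lists were chosen with earlier results of these data known. Genes named were, per role, up to 3 with the highest mean FPKM, the 8 largest rises and 8 largest falls with bFGF past the threshold, the 5 smallest p for a difference between days, up to 5 by p for CHIR99021 and for the interaction, Eef1a1, Eef2, Eif4ebp1, Eif4e, Eif2s3y and members below the filter. Others, such as Eif3b, Eif3e, Eif3l and Eif4g1 beside its partner, were named after their values were seen. Sequences are from RefSeq (GRCm38.p6). 1 cell type marker is not reported here.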

Additional observations from a re-analysis of the deposited data

Results flagged for a closer look

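The bFGF difference changed between days for 49 of the 61 members (80.3%) by the edgeR test of that change itself. That share is close to the 76.3% of all genes tested. The 5 members with the smallest p were picked by that same test. Their bFGF log2 fold change on day 7 minus that on day 1 was 1.68 for Eif3h, 1.41 for Eif4b, 1.62 for Eif2a, 1.72 for Eef1a1 and 1.66 for Eif3f. Each day and medium is 1 library, so day and culture cannot be told apart.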

How the results depend on the processing

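The scaling bore most on direction. Over days 1 to 7, library totals without TMM, limma with a pseudocount of 1 and limma with 0.1 turned Eif1a to -0.012, -0.014 and -0.016, Eif5b to -0.16, -0.15 and -0.16, Eif4enif1 to -0.25, -0.22 and -0.24 and Eif3j1 to -0.12, -0.11 and -0.12. Quantile normalization turned Eef2 to -0.20 and Eif3l to -0.17, and on day 7 Eef1a1 to -0.046 and Eef2 to -0.47. Of the 45 calls, 40 were kept in the same direction on library totals and 35 on quantile-normalized values. The day 1 count of 7 became 3 on library totals, 4 with either limma pseudocount, 4 on quantile-normalized values and 1 without the CHIR99021 term. The CHIR99021 count of 0 became 9 with bFGF within each day as terms. Leaving out each library in turn gave 41 to 47 calls for bFGF over days 1 to 7, 0 to 20 on day 1, 29 to 40 on day 3, 45 to 51 on day 5, 43 to 49 on day 7, 43 to 51 for the difference between days, 45 to 55 over time without bFGF and 43 to 47 with it, and 0 to 0 for CHIR99021 and for the interaction. Eif2ak2, Eif2ak3, Eif1a, Eif3j1 and Eif5a2 each lost the call in some of these. The labels give no replicate numbers, so no fit with a replicate block was made. Day is a term in every model, and Eef1a1 was also compared in pairs of the same day and CHIR99021 state.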
